A study of Mus musculus with 4 samples.

Results

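Expression of 53 genes for cadherins, contactins and synaptic adhesion molecules was described across cell types of the deep cerebellar nuclei of mice, through which the cerebellum sends its output, in single-nucleus RNA sequencing of 4 libraries. The genes are all those whose symbol opens with Cdh and a digit, Pcdh, Cntn and a digit, Cntnap, Nrxn, Nlgn, Lrrtm or Nxph, or is Tenm1, Tenm2, Tenm3 or Tenm4. The deposited tables hold 15632 gene symbols, of which 58 match and 53 have a count in each library. They are 16 cadherins, 9 protocadherins, 6 contactins, 7 contactin-associated proteins, 4 teneurins, 3 neurexins, 3 neuroligins, 3 leucine-rich repeat transmembrane (LRRTM) proteins and 2 neurexophilins. The 5 symbols left out are Lrrtm2, Cdh1, Cdh24, Pcdh8 and Pcdha1, which have no count in at least 1 library. Other clustered alpha, beta and gamma protocadherins were not analysed here.

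All mice were of strain C57BL/6J. In the Ucn3-Cre group, mice carrying Tg[Ucn3-cre]KF31Gsat/Mmucd, in which urocortin 3 control sequences drive Cre, were crossed with Ai32, a reporter that makes channelrhodopsin fused to EYFP once Cre has acted. Its replicate 1 was a female aged 3 months whose nuclei were taken from an iodixanol gradient, and its replicate 2 a male aged 3 months with a sucrose cushion. In the vGluT2-Cre group, Tg(Slc17a6-icre)1Oki, which places Cre under the gene for the vesicular glutamate transporter VGLUT2, was crossed with the same Ai32 reporter. Its replicate 1 was a male aged 2 months and its replicate 2 a female aged 2.5 months, both with a sucrose cushion. The nuclei came from tissue cut out of vibratome slices and were not sorted in the protocols given, so both lines yield all cell types. Line and age differ together, the labels do not say whether a library pools animals, and p-values measure the spread between these 4 libraries, which may be technical in part.

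Cadherins hold cells together through calcium-dependent contacts, in most cases with the same cadherin on the facing cell, and combinations of cadherins and protocadherins mark groups of neurons that are wired together. Contactins are immunoglobulin proteins tied to the membrane by a lipid anchor, and with contactin-associated proteins they organise the nodes of myelinated axons and some synapses. Neurexins sit mainly on the sending side of the synapse and bind neuroligins and LRRTM proteins across the cleft, neurexophilins are secreted ligands of neurexins, and teneurins bind latrophilins. In the deep cerebellar nuclei, glutamatergic projection neurons, inhibitory projection neurons and glycinergic neurons receive Purkinje cell input, and myelin and astrocytes are abundant.

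The genes are long. In GENCODE vM21 on GRCm38 their median span is 313 kb (9.09 to 2245 kb), and 41 of 53 (77.4%) exceed 100 kb, against a median of 28.6 kb and 17.1% among the protein-coding rows of the tables. Whether reads in introns were counted is not given in the sources used here, and levels are therefore compared between cell types within a gene, never between genes. RefSeq promoters (GRCm38.p6) were matched for 37 of the 53 genes. The 250 bases before 1 listed RefSeq start are printed for 4 genes whose levels separated cell types in the comparisons that follow. They are Cntn2 for precursors against oligodendrocytes, Cntn5 for neurons against glia, and Nxph1 and Nrxn3 for glutamatergic against inhibitory neurons. The strand is that of the gene and capitals mark the E-box letters CANNTG, searched on both strands.
Cntn2, chr1:132542941-132543190, minus strand: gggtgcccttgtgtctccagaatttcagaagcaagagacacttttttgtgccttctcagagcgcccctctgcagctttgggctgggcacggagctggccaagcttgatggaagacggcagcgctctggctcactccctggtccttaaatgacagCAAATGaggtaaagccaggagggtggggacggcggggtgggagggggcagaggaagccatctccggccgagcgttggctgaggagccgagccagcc
Cntn5, chr9:10904776-10905025, minus strand: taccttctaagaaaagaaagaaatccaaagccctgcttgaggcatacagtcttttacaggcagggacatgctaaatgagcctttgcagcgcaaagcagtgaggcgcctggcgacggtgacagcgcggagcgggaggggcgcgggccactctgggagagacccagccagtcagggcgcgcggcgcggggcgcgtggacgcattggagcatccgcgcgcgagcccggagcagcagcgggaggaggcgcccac
Nxph1, chr6:8949769-8950018, plus strand: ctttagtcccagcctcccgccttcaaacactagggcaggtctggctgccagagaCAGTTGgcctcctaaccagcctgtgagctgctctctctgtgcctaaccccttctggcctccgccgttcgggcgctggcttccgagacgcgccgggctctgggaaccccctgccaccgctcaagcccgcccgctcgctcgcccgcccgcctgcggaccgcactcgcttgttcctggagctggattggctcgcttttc
Nrxn3, chr12:88794254-88794503, plus strand: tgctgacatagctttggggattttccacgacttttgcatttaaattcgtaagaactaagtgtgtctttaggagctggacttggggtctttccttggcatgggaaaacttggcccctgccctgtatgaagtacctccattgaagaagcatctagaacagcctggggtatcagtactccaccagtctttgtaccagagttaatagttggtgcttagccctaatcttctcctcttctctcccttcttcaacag
These stretches hold 1, 0, 1 and 0 matches to CANNTG and 10, 24, 20 and 2 CG dinucleotides in the order shown. Cntn5 has 2 and Nrxn3 has 3 starts in the RefSeq table, of which 1 is shown for each. The Nrxn3 stretch lies inside the GENCODE span of the gene (chr12:88722876-90334935) and is not the sequence before its outermost start. The stretches of Nxph1 (span from 8948431) and Cntn2 (span to 132543256, minus strand) also lie inside the GENCODE spans. CANNTG occurs in 62% of the 50 promoters of the genes studied here, against 66.2% of 32851 promoters of the same length, and TATAAA in 8%, against 12.4%. The median number of CG dinucleotides was 8, against 6. These matches describe letters, not sites.

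Ucn3-Cre replicate 1 had 4291 nuclei and a total of 9096357 background-corrected counts, and Ucn3-Cre replicate 2 had 6587 nuclei and 16219109 counts. For vGluT2-Cre mice, replicate 1 had 5642 nuclei with 16412271 counts and replicate 2 had 4974 nuclei with 19125488 counts. Each library shared 17 to 24 barcodes with another. After removal of 947 likely doublets, 20547 nuclei fell into 19 clusters and 10 classes named after the markers they resemble: glutamatergic neurons, inhibitory nuclear or Golgi neurons (called inhibitory neurons here), molecular layer interneurons, oligodendrocyte precursors, oligodendrocytes, astrocytes, microglia, endothelial cells, mural cells and fibroblasts. Glutamatergic markers summed to 496 to 601 CPM (counts scaled to a sum of 1000000 per library and class) in glutamatergic neurons, against 26.2 to 43.7 CPM in inhibitory neurons, and inhibitory markers to 131 to 339 CPM, against 1295 to 1538 CPM, so each list was highest in its own class. The oligodendrocyte clusters divided by library: clusters 0 and 1 held mostly nuclei of replicate 1 of both lines, and clusters 2, 3 and 4 mostly those of replicate 2. The nucleus names of both replicate 2 libraries carry 1 shared number and those of the replicate 1 libraries a number each, and the labels do not say what it marks. Throughout, counts were summed per library and class, and values are given for Ucn3-Cre replicates 1 and 2 and then vGluT2-Cre replicates 1 and 2, as CPM of that sum. A log2 fold change is from edgeR and is given ± its standard error, from 4 libraries per class unless stated. The adhesion genes took no part in the clustering, but the classes come from the same counts, so p-values between classes are too small.

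Neurons and oligodendrocyte precursors devoted the largest share of their counts to these genes. The share was 3.86 to 4.94% in inhibitory neurons, 3.74 to 4.46% in oligodendrocyte precursors, 3.37 to 4.51% in glutamatergic neurons and 3.23 to 3.94% in molecular layer interneurons. It was 1.87 to 2.61% in oligodendrocytes and 1.94 to 2.46% in astrocytes, and at most 0.558% in any library of the other 4 classes. Of the 53 genes, 23 had their highest mean in 1 of the 3 neuron classes, of which 15 did not overlap with the next class. Oligodendrocyte precursors led for 17, of which 10 did not overlap with the next class. Astrocytes and oligodendrocytes led for 4 genes each, endothelial and mural cells for 2 each, and microglia for 1. Values of the 4 libraries of a class come from the same tissue pieces as those of the other classes, and the order of classes is given as a description. These counts have no share over all genes beside them, so they do not set the adhesion genes apart from other genes.

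Single genes stood out in some classes, among them microglia, endothelial cells and mural cells, whose share of counts in the family was small. Cdh23, a cadherin of the tip links of inner ear hair cells, had 466, 311, 192 and 331 CPM in microglia, while astrocytes, the next class, averaged 15.5 ± 5.97 CPM (SD, n = 4). Cdh5, the cadherin of endothelial junctions, had 335, 317, 336 and 299 CPM in endothelial cells. Fibroblasts were next with 34.7, 145, 99.4 and 31.2 CPM, from 16 to 22 nuclei per library. Pcdh18, a protocadherin, had 173, 117, 168 and 139 CPM in mural cells, and endothelial cells followed with 55.8, 38.7, 34.4 and 39.8 CPM. Each of these 3 ranges lay apart from that of the next class. Cntn4, a contactin of growing axons, had 4326, 4066, 4584 and 4029 CPM in molecular layer interneurons, all above the 1167 to 1540.2 CPM of inhibitory neurons, the next class. In the same interneurons Nrxn3 (9819 to 13675 CPM), Cdh22 (337 to 688 CPM) and Cntn6 (325 to 663 CPM) were highest by mean but overlapped with the next class. Precursors led for Nrxn2, with 1349, 985, 871 and 1095 CPM, against 241 to 317 CPM in molecular layer interneurons, and for Cdh13, a cadherin without a cytoplasmic part, with 765, 716, 652 and 728 CPM, against 130.3 to 194 CPM in inhibitory neurons. Both ranges were separate.

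**Figure D1:**
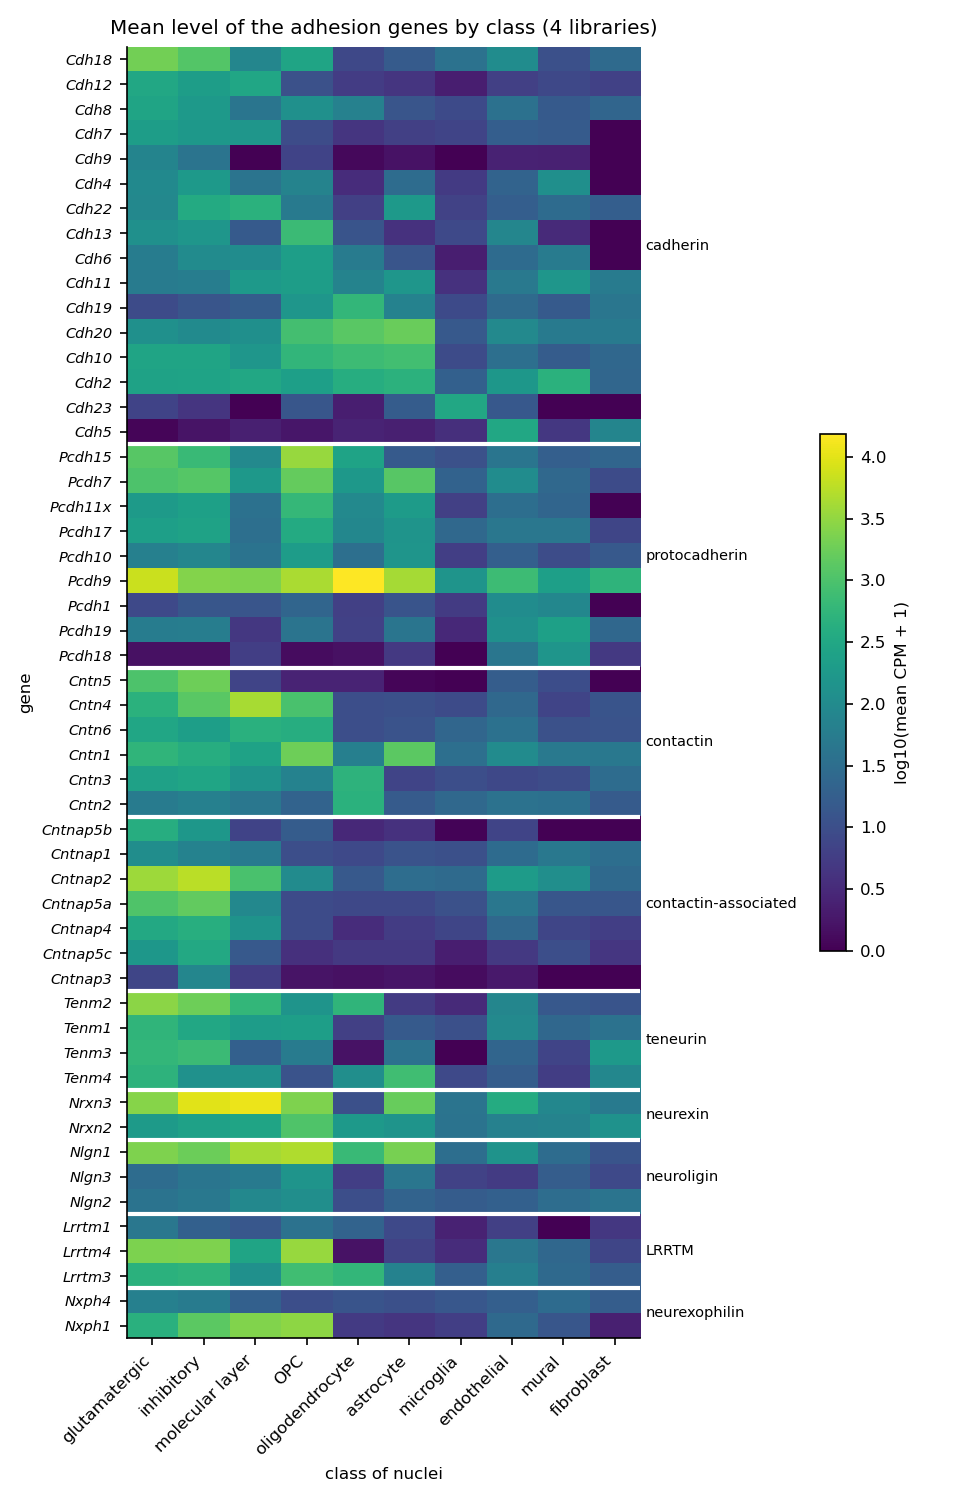
Mean level of 52 of the 53 genes (rows, by family) in each of the 10 classes (columns), shown as the base-10 logarithm of CPM + 1, averaged over 4 libraries. The neuron and precursor columns are the most filled, and microglia, mural cells and fibroblasts hold few members above the lowest colours, among them Cdh23 in microglia at 325 CPM.

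The first comparison set glutamatergic neurons (94 to 190 nuclei per library) against inhibitory neurons (168 to 399). Of 51 adhesion genes tested, 19 were higher in glutamatergic neurons (37.3% of those tested, against 16.6% of all 11878 genes) and 17 were lower (33.3%, against 14.9%), by edgeR's quasi-likelihood test with Benjamini-Hochberg adjustment at 0.05. The values of the 4 libraries did not overlap for 15 of the 19 and 14 of the 17. These counts describe members that had passed the test and have no share over all called genes beside them. They therefore add no support to the calls and do not set the adhesion genes apart from other genes. The median log2 fold change of the tested members was -0.097, against -0.0081 over all genes, so the genes moved in both directions. Cdh5 and Pcdh18 had too few counts to be tested.

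Within the neurexin system, the genes for neurexin 3 and neurexophilin 1 were lower in glutamatergic neurons than in inhibitory neurons taken as 1 class. Nrxn3 had 2609, 1798, 3769.6 and 2430.3 CPM in glutamatergic neurons, against 9765, 8821, 11882 and 9193 CPM in inhibitory neurons. Every glutamatergic value was below every inhibitory one, and the log2 fold change was -1.86 ± 0.066, adjusted p = 6.46e-18. Nxph1, the secreted ligand, had 439, 322, 523 and 495 CPM in glutamatergic neurons, against 1274, 1276, 1546 and 1378 CPM in inhibitory neurons, again without overlap (-1.56 ± 0.069, adjusted p = 6.32e-16). The inhibitory sum of Nxph1 joins unlike sub-clusters, described below. Inhibitory sub-clusters 3 and 4 had 2410 to 3891 CPM, and 0, 1 and 6 had 86.8 to 939 CPM (median 260), which overlaps the glutamatergic values. Nrxn2 was also lower in glutamatergic neurons without overlap (-0.34 ± 0.073, adjusted p = 0.000735). Among the receptors, Nlgn1, the neuroligin of excitatory synapses, was higher with overlapping values (0.49 ± 0.053, adjusted p = 3.77e-08), and Lrrtm1, an LRRTM protein of excitatory synapses, had 46.0, 43.5, 37.7 and 51.1 CPM, against 15.5, 27.8, 12.8 and 16.4 CPM, with no overlap (1.38 ± 0.17, adjusted p = 4.9e-07). Nlgn1 spanned 3118 to 4626 CPM in inhibitory sub-clusters 3 and 4, above its 2038 to 2910 CPM in glutamatergic neurons. In inhibitory sub-clusters 0, 1 and 6 it spanned 146 to 1373 CPM. Nlgn2, the neuroligin of inhibitory synapses, did not pass the test (-0.098 ± 0.14, adjusted p = 0.648). Nlgn3 was lower with overlapping values (-0.46 ± 0.16, adjusted p = 0.0329), and its call was lost under 6 of the alternatives, leaving out Ucn3-Cre replicate 2 or vGluT2-Cre replicate 2 among them.

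Contactin-associated genes divided, with 2 of 7 higher and 5 of 7 lower in glutamatergic neurons. Cntnap3 showed the widest gap of all the members, with 3.54, 8.59, 7.45 and 7.11 CPM in glutamatergic neurons, against 75.9, 76.7, 105 and 63.9 CPM in inhibitory neurons. The groups were far apart, at a log2 fold change of -3.44 ± 0.18, adjusted p = 2.52e-14. Cntnap2, whose product clusters potassium channels beside the node, had 3552, 3334, 4210.1 and 3619.5 CPM, against 5757, 5006, 6727 and 5351 CPM, lower without overlap (-0.55 ± 0.053, adjusted p = 3.78e-09). Of the close paralogs Cntnap5a, Cntnap5b and Cntnap5c, between which counts could be split, Cntnap5b was higher (487, 366, 427 and 335 CPM in glutamatergic, against 170.1, 158, 172 and 150.2 CPM in inhibitory neurons) while the other two were lower. Their log2 fold changes were 1.37 ± 0.074 for Cntnap5b, -0.43 ± 0.063 for Cntnap5a and -0.97 ± 0.081 for Cntnap5c (adjusted p of 4.14e-14, 5.22e-06 and 2.66e-10). Cntnap1, the partner of contactin 1 at the paranode, was higher by 0.74 ± 0.094, adjusted p = 5.68e-07. The lower genes did not hold for every inhibitory sub-cluster. In inhibitory sub-clusters 3 and 4, Cntnap3 had no count, Cntnap5a 305 to 680 CPM and Cntnap5c 0 to 9.82 CPM. Each lay below all its glutamatergic values. Cntnap2 had 1703 to 3909 CPM there, which overlaps its glutamatergic values. Among contactins, Cntn4 had 466, 389, 591 and 442 CPM in glutamatergic neurons, against 1247, 1167, 1540.0 and 1179 CPM in inhibitory neurons, and Cntn5 had 1223, 935, 1219.6 and 759.9 CPM, against 1801, 1789, 2039 and 1741 CPM. Both were lower in every library with no overlap (-1.37 ± 0.059, adjusted p = 4.63e-16 for Cntn4 and -0.78 ± 0.071, adjusted p = 1.51e-09 for Cntn5). For Cntn5 this was reversed in inhibitory sub-clusters 3 and 4, which had 0 to 34.8 CPM, below every glutamatergic value. Cntn4 had 376 to 1228 CPM in inhibitory sub-clusters 0, 1 and 6, which overlaps the glutamatergic values. Cntn1 was higher (0.53 ± 0.063, adjusted p = 1.52e-07), and for Cntn2 the values overlapped and the test was not passed (-0.19 ± 0.11, adjusted p = 0.234).

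Teneurins were higher in glutamatergic neurons for 3 of 4 genes. Tenm4 had 567, 502, 509 and 470.1 CPM in glutamatergic neurons, against 172, 137, 100.2 and 114 CPM in inhibitory neurons, with each glutamatergic value well above each inhibitory one (2.10 ± 0.082, adjusted p = 4.8e-17). Tenm1 (0.85 ± 0.071, adjusted p = 3.55e-10) and Tenm2 (0.73 ± 0.058, adjusted p = 1.21e-10) were also higher without overlap. Tenm3, a guide of axon targeting, had overlapping values (-0.20 ± 0.064, adjusted p = 0.0168), and its call was lost under 6 alternatives, among them leaving out either vGluT2-Cre library. Pcdh9, a protocadherin of the delta type, had 7455, 5949, 8990.2 and 6219 CPM in glutamatergic neurons, against 2962, 2051, 3117 and 2217 CPM in inhibitory neurons, a separate range (1.55 ± 0.054, adjusted p = 5.15e-18). Pcdh15, better known from hair cell tip links, followed the same direction (0.94 ± 0.065, adjusted p = 7.35e-12). Cadherins went both ways, 6 of 15 tested being higher and 3 lower. Cdh9 had 62.5, 71.8, 90.4 and 78.9 CPM in glutamatergic neurons, against 40.8, 39.4, 35.3 and 45.2 CPM in inhibitory neurons, and Cdh18 was higher too (log2 fold changes of 1.06 ± 0.12 and 0.83 ± 0.059, adjusted p of 1.51e-07 and 1.37e-11). Cdh22 went the other way, with 94.3, 109.8, 55.1 and 91.8 CPM, against 357, 419, 288 and 379 CPM, and none of its values overlapped (-1.99 ± 0.088, adjusted p = 6.32e-16). Within inhibitory neurons, Cdh22 had 632 to 1207 CPM in sub-clusters 3 and 4 and 13.1 to 81.6 CPM in 0, 1 and 6. Cdh4 (-0.80 ± 0.093, adjusted p = 1.18e-07) and Cdh6 (-0.80 ± 0.11, adjusted p = 2.69e-06) were lower in glutamatergic neurons as well, both without overlap. Yet Cdh4 had 37.0 to 159 CPM in inhibitory sub-clusters 3 and 4, overlapping its 74.2 to 107 CPM in glutamatergic neurons. Cdh6 had 27.0 to 122 CPM in inhibitory sub-clusters 0, 1 and 6, overlapping its 48.3 to 64.7 CPM in glutamatergic neurons.

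**Figure D2:**
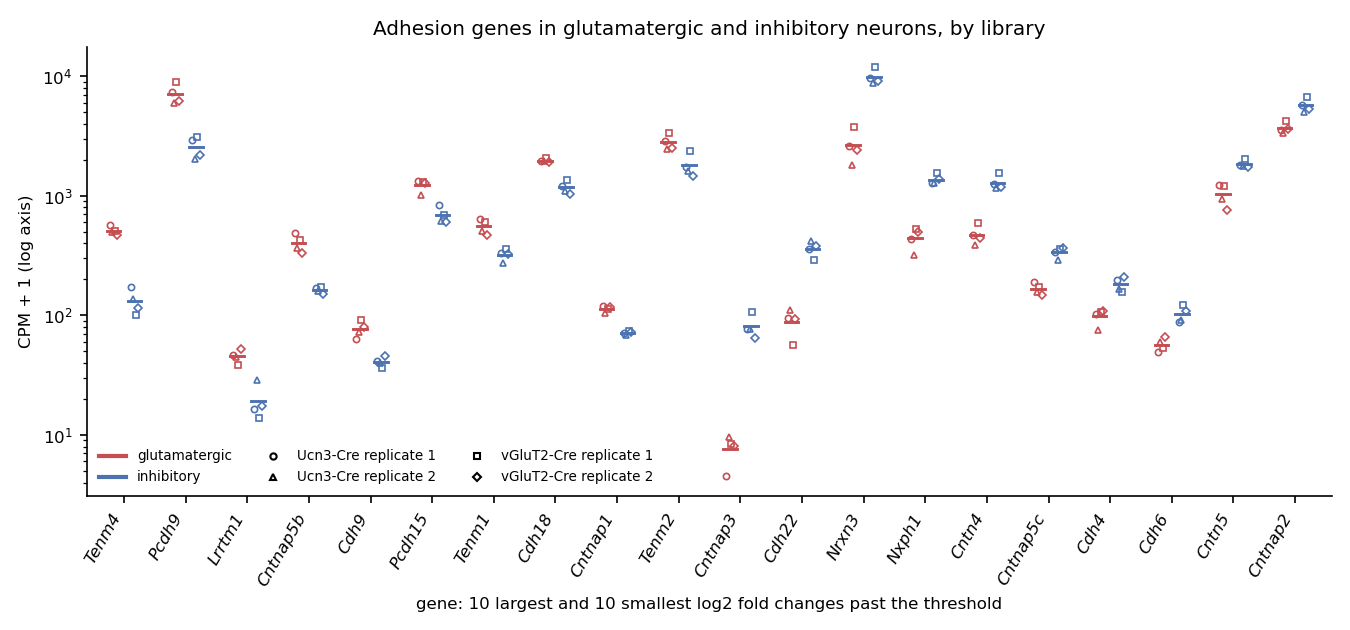
CPM + 1 (log axis) in each library for the 10 members with the largest and the 10 with the smallest log2 fold change among those called, glutamatergic neurons beside inhibitory neurons. Points of the classes separate for each gene shown, most widely for Cntnap3, whose log2 fold change was -3.44.

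Other adhesion genes around these families also divided between the classes. Of 20 tested partners of neurexins, neuroligins and teneurins, 6 were higher in glutamatergic neurons and 9 lower, with C1ql3 (3.61) and Cbln1 (1.08), secreted bridges to glutamate receptors and related receptors, at the top and Igsf21 (-1.97), a ligand of neurexin 2, at the bottom of the log2 fold changes. Of 22 receptor phosphatases and leucine-rich synaptic adhesion genes, 8 were higher and 6 lower, led by the netrin-G genes Ntng1 (3.17) and Ntng2 (3.03). The cadherin superfamily and catenin list had 4 higher and 7 lower of 18, and the list of immunoglobulin adhesion genes 6 higher and 9 lower of 20. Glutamatergic nuclei were deeper, at a median of 6743 to 15405 counts, against 3864 to 7852 in inhibitory nuclei. Oligodendrocyte markers summed to 354 to 523 CPM, against 309.8 to 879 CPM. The part of depth and of these transcripts in the results was not tested. Without the sub-clusters led by markers of another class, 19 members were higher and 18 lower.

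Glutamatergic neurons were clustered again without the adhesion genes, which gave 7 sub-clusters large enough to sum and led by neuronal genes: 0 (Kynu and Igf1), 1 (Cpne4), 3 (Crhr1 and Maf), 4 (Zfhx3), 5 (Lmx1a), 8 (Sema3a) and 9 (Adamtsl5), with 32 to 88 nuclei each. Sub-clusters 6 and 7 were led by inhibitory and by oligodendrocyte markers and are left out of the levels given, and sub-cluster 2 had 14 nuclei. Over the 9 summed sub-clusters, 44 of 47 members differed by edgeR's F test, against 29.5% of all genes tested. The adjusted p of the 15 with the smallest p ran from 5.4e-20 to 4.05e-06 in this test without sub-clusters 6 and 7. Their highest and lowest neuronal sub-clusters had separate ranges, which adds no support because genes and sub-clusters were picked from these same sums.

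Nrxn3 and Nxph1 again ranked high. Nrxn3 had 6849, 4433, 7619 and 6376 CPM in sub-cluster 4, the highest, and 1758, 504, 1992 and 1205 CPM in sub-cluster 3, the lowest. Nxph1 reached 574, 732, 682 and 645 CPM in sub-cluster 0, while sub-cluster 5 had 65.0, 116, 164 and 62.1 CPM. Sub-cluster 4, led by Zfhx3, was thus high for the neurexin, and sub-cluster 0 for its ligand, with the lowest levels elsewhere for each. Cntn3 had 366, 406, 476 and 484 CPM in sub-cluster 1 and 24.7, 7.31, 6.04 and 23.2 CPM in sub-cluster 5. Cntn4 had 2442, 1054, 1345 and 974 CPM in sub-cluster 4 and 78.3, 63.2, 152 and 139 CPM in sub-cluster 8, and Cntnap4, a contactin-associated gene, 744, 569.9, 976 and 612 CPM in sub-cluster 8 and 110.2, 86.1, 107 and 124 CPM in sub-cluster 3. Each of these 3 genes had its own pair of highest and lowest sub-clusters. For cadherins, the highest and lowest sub-clusters were 4 and 3 for Cdh10, 3 and 5 for Cdh18, 5 and 8 for Cdh4, 8 and 1 for Cdh7, 1 and 5 for Cdh8, and 8 and 9 for Cdh13. Cdh18 spanned 2261 to 3131 CPM in sub-cluster 3 and 509 to 958 CPM in sub-cluster 5, and Cdh8 343 to 663 CPM in sub-cluster 1 and 32.6 to 171 CPM in sub-cluster 5. Sub-cluster 5, led by Lmx1a, was the lowest for 6 of the 15 genes (Nxph1, Cntn3, Cdh18, Cdh8, Pcdh15 and Cntnap5b) and the highest for Cdh4 and Pcdh9. Tenm2 had 7558, 4835, 7592 and 5334 CPM in sub-cluster 4 and 1612, 1153, 1852 and 1477 CPM in sub-cluster 8, and Pcdh9 had 11967, 8319, 14240.4 and 8333 CPM in sub-cluster 5 and 3947, 4265, 4325 and 3237 CPM in sub-cluster 1.

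Inhibitory neurons were divided in the same way. Sub-clusters 3 (152 nuclei, led by Dab1, Nts and Kit) and 4 (237 nuclei, led by Slc6a5 and Pax2, of which Slc6a5 encodes the glycine transporter of glycinergic neurons) came from one of the inhibitory clusters. Sub-clusters 0 (123 nuclei, Prlr and Rorb), 1 (384 nuclei, Epha7) and 6 (108 nuclei, Foxp2 and Ramp3) came from the other. Of 47 members tested over 6 summed sub-clusters, 43 differed by edgeR's F test, against 41% of all genes tested. Between 3 and 4 on one side and 0, 1 and 6 on the other, 8 of the 47 members tested were higher without overlap of any library (17%, against 5.07% of 6255 genes), and 16 were lower without overlap (34%, against 5.2%). This grouping was chosen after the levels were seen and is given as a description, with no test.

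Cntn5, a contactin of sensory circuits, had the smallest p of the F test. It had 0, 6.05, 27.5 and 15.3 CPM in sub-cluster 3 and 34.8, 29.6, 33.3 and 13.0 CPM in sub-cluster 4. In sub-cluster 0 it had 4109, 3596, 4682 and 4241 CPM, in sub-cluster 1 2624, 2878, 3330.1 and 2563 CPM and in sub-cluster 6 3022, 3056, 2971 and 2471 CPM. It was at or near 0 on one side and high on the other in every library. Cntn3 shared this pattern, with 0 to 28.4 CPM (median 6.66) in 3 and 4, against 235 to 684 CPM (median 471) in 0, 1 and 6. Cntn4 and Cntn6 had the reverse pattern: Cntn4 spanned 1609 to 3161 CPM (median 2093) in 3 and 4, against 376 to 1228 CPM (median 924), and Cntn6 280.4 to 479 CPM (median 357), against 53.5 to 157 CPM (median 105). Contactin-associated genes were lower in 3 and 4 for 5 of 7 genes. Cntnap3 had no count in any library of 3 and 4 and 72.3 to 229 CPM (median 118) in the others. Cntnap2 had 1703 to 3909 CPM (median 2297) in 3 and 4, against 5470.3 to 10943 CPM (median 7774), and Cntnap5c 0 to 9.82 CPM (median 6.22), against 319 to 874 CPM (median 569).

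In the neurexin system the ligand and a receptor were higher in sub-clusters 3 and 4, while neurexin 3 was lower. Nxph1 had 3585, 3364, 3891 and 3246 CPM in sub-cluster 3 and 2683, 2409.7, 3053 and 3128 CPM in sub-cluster 4. It had 535, 852, 939 and 691 CPM in sub-cluster 0, 225, 252, 304 and 268 CPM in sub-cluster 1 and 86.8, 123, 174 and 99.6 CPM in sub-cluster 6. Nlgn1 spanned 3118 to 4626 CPM (median 3377) in 3 and 4, against 146 to 1373 CPM (median 482) in 0, 1 and 6. These 2 genes thus lay on the high side in the sub-clusters led by Dab1, Nts and Kit and by Slc6a5 and Pax2. This was not particular to them. Molecular layer interneurons, a separate class, had 2040 to 3007 CPM of Nxph1 and 3717 to 4810 CPM of Nlgn1. That class was also highest by mean for Cntn4, Cntn6 and Cdh22, which were higher in 3 and 4 too. Nrxn3 spanned 5704 to 9916 CPM (median 6995) in 3 and 4, against 10769 to 15765 CPM (median 11756), and Lrrtm4, an LRRTM receptor, 389.7 to 1415 CPM (median 777), against 2872 to 4460.3 CPM (median 3386). Nxph4, the other neurexophilin, went opposite to Nxph1, with 0 to 26.3 CPM (median 9.03) in 3 and 4, against 43.9 to 111 CPM (median 73.3). Nrxn2, Nlgn2 and Nlgn3 overlapped between the groups. Among cadherins, Cdh22 had 632 to 1207 CPM (median 893) in 3 and 4, against 13.1 to 81.6 CPM (median 29.6), and Cdh20 162 to 271 CPM (median 203), against 0 to 66.7 CPM (median 8.98). Cdh8 had 0 to 21.6 CPM (median 6.66), against 65.2 to 575 CPM (median 285), a cadherin on the other side. Cdh12 was highest in sub-cluster 6, with 676, 674, 614 and 638 CPM, and Tenm3 was low in 3 and 4, with 5.88 to 29.4 CPM (median 9.33), against 320.3 to 1713 CPM (median 1160.0). Sub-cluster 3 had a low score for the Slc6a5 and Oprk1 marker lists, the only ones scored among inhibitory sub-clusters, and was not named. Its resemblance to molecular layer interneurons, whose marker list holds Kit, was not scored. Sub-clusters 2, 5 and 7 were led by granule cell or oligodendrocyte markers and are not part of this description. By the F test the 15 leading members had adjusted p of at most 1.07e-38, and at most 3.02e-14 under the alternatives. Here edgeR took the spread mostly from all genes together (prior degrees of freedom 102.5), which makes adjusted p very small.

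**Figure D3:**
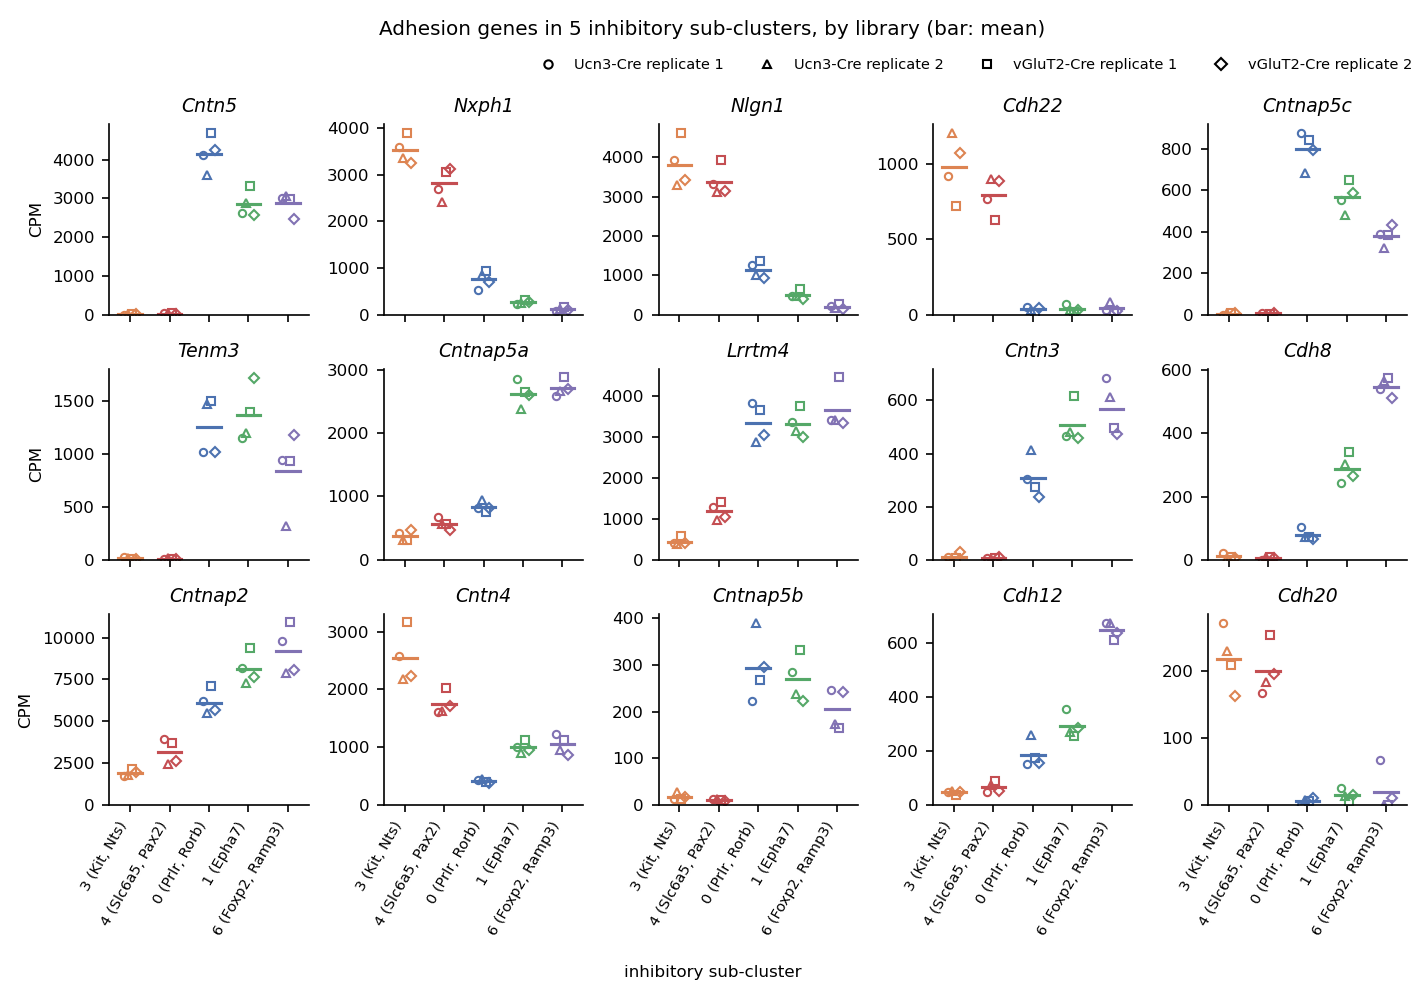
CPM per library (points) and mean (bar) of 15 members in inhibitory sub-clusters 3 and 4, then 0, 1 and 6. Cntn5, Cntn3, Cntnap5c and Tenm3 lie near 0 in sub-clusters 3 and 4, and Nxph1, Nlgn1 and Cdh22 lie high there.

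Neurons and glia were compared as the mean log level of the glutamatergic and inhibitory classes over that of oligodendrocytes, precursors, astrocytes and microglia. Of 51 members tested, 45 were higher in neurons (88.2%, against 36.7% of all genes) and 3 lower (5.88%, against 34.2%), with a median log2 fold change of 2.70. Each glial class counts equally, and microglia, which hold little of most members, pull the glial mean down. Without microglia, 10 members were lower in neurons. For 10 of the 45, among them Nrxn2, Cntn1, Cntn2 and Pcdh9, the plain mean over glial classes exceeded that over neurons. All 7 contactin-associated and all 6 contactin genes were among the 45, but by plain means Cntn1 averaged 477 CPM in neurons, against 820.0 CPM in glia, and Cntn2 60.5 CPM in neurons, against 134 CPM in glia. The call of Cntn2 was lost without microglia (log2 fold change 0.067).

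Cntn5 showed the largest difference, with 1222, 935, 1219.5 and 759.7 CPM in glutamatergic and 1802, 1789, 2039 and 1742 CPM in inhibitory neurons. In glia it did not exceed 5.95 CPM in any library, and the log2 fold change was 11.36 ± 0.22, adjusted p = 3.04e-31. Cntnap2 averaged 3679 ± 374 and 5712 ± 744 CPM in glutamatergic and inhibitory neurons, against 103 ± 45.5 CPM in precursors, 13.8 ± 6.12 in oligodendrocytes, 30.0 ± 10.6 in astrocytes and 26.8 ± 8.43 in microglia (SD, n = 4). Cntnap5a (7.19), Cntnap5b (7.26), Cntnap5c (6.28) and Cntnap4 (6.23) had log2 fold changes of the same order. Tenm3 (7.67), Cdh9 (6.86) and Cdh12 (6.22) were the leading teneurin and cadherins. Lower in neurons were Cdh19 (-3.34 ± 0.39, adjusted p = 1.09e-09), Cdh20 (-1.87 ± 0.19, adjusted p = 2.28e-11) and Cdh23 (-1.84 ± 0.29, adjusted p = 5.98e-07). Cdh19 and Cdh20 were carried by oligodendrocytes and astrocytes, with 455 to 690.1 CPM of Cdh19 in oligodendrocytes and 1494 to 1883 CPM of Cdh20 in astrocytes. Cdh23 was carried by microglia, and its call was lost without them.

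The neurexin system was spread over neurons and glia. Nrxn2 had 1349, 985, 871 and 1095 CPM in precursors and averaged 186 ± 10.7 CPM in glutamatergic neurons, 249 ± 6.66 CPM in inhibitory neurons, 181 ± 19.1 CPM in oligodendrocytes and 146 ± 4.28 CPM in astrocytes. Nrxn3 differed in that inhibitory neurons were highest of these classes, at 9918 ± 1367 CPM, followed by glutamatergic neurons at 2652 ± 822, precursors at 2393 ± 324 and astrocytes at 1652 ± 255 CPM (SD, n = 4). Nlgn1 averaged 2349.7 ± 402 CPM in glutamatergic and 1769 ± 252 in inhibitory neurons, 4918 ± 422 in precursors, 2081 ± 225 in astrocytes and 683 ± 107 CPM in oligodendrocytes. Lrrtm4 was high in both neuron classes and in precursors (3433 ± 442 CPM) but averaged 5.73 ± 7.03 CPM in astrocytes. Without microglia, the log2 fold changes of neurons over glia became -0.034 for Nlgn1, -0.33 for Cntn1 and -0.61 for Nrxn2, opposite in sign to 1.64, 0.72 and 0.20 with them.

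**Figure D4:**
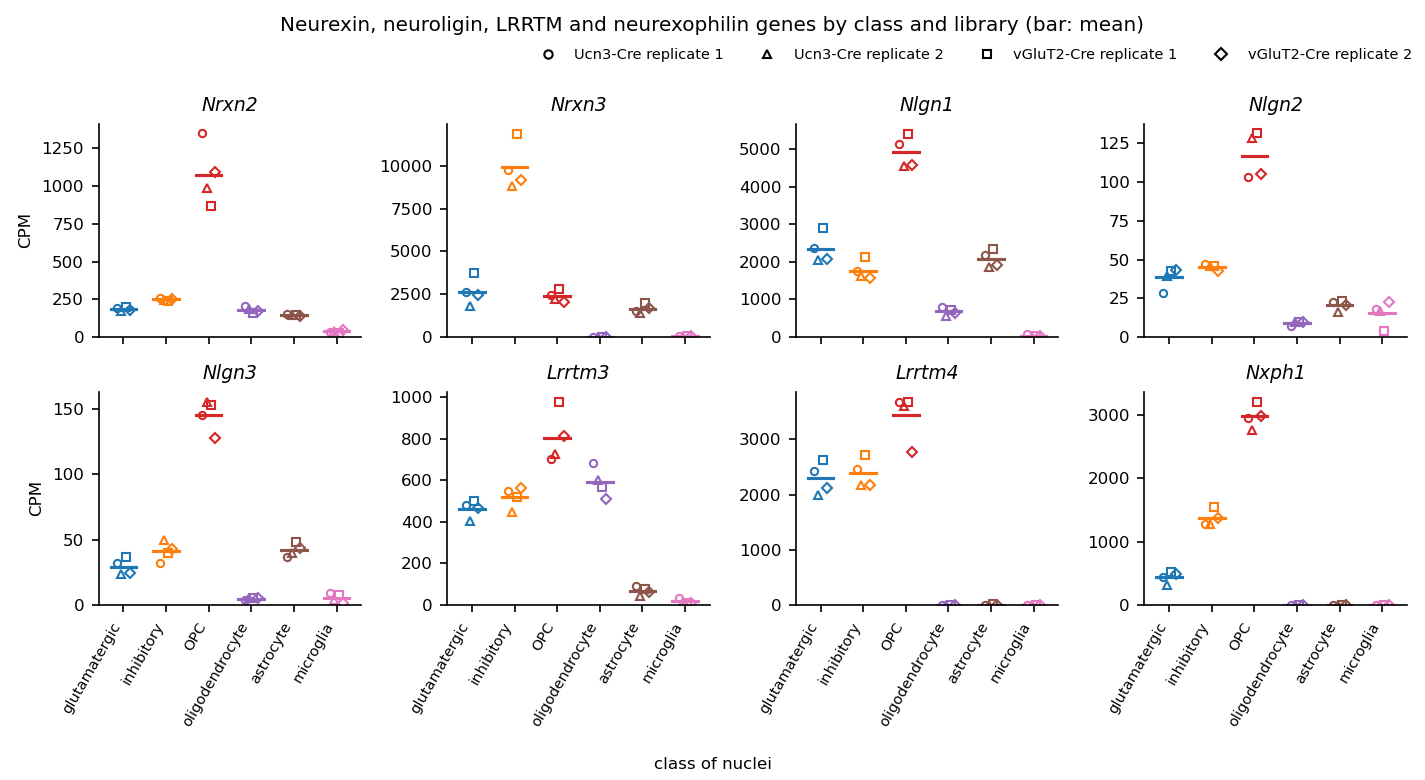
CPM per library (points, linear axis) of Nrxn2, Nrxn3, Nlgn1, Nlgn2, Nlgn3, Lrrtm3, Lrrtm4 and Nxph1 in glutamatergic neurons, inhibitory neurons, oligodendrocyte precursors, oligodendrocytes, astrocytes and microglia. Precursors lie above oligodendrocytes for each gene, and inhibitory neurons are highest for Nrxn3, at a mean of 9918 CPM.

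Oligodendrocyte precursors (133 to 206 nuclei per library) were compared with oligodendrocytes (2224 to 3367), the myelinating cells they give rise to. Of 49 members tested, 33 were higher in precursors (67.3%, against 26.3% of 12092 genes) and 9 lower (18.4%, against 23.4%), with a median log2 fold change of 2.56, against -0.016 over all genes. Nrxn2, Nrxn3, all 3 neuroligins and all 3 LRRTM genes were higher in precursors, and 7 of 8 tested protocadherins. Of the lists of other adhesion genes, 17 of 21 tested synaptic partners were higher and 1 lower, with Igsf21 (8.04) and C1ql1 (7.42) leading by log2 fold change. The receptor phosphatase and leucine-rich list had 14 higher and 3 lower of 22, the immunoglobulin list 14 higher and 4 lower of 20, and the cadherin superfamily and catenin list 10 higher and 4 lower of 17.

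Lrrtm4 had 3667, 3603, 3677 and 2771 CPM in precursors, against 0.272, 0.157, 1.66 and 0.120 CPM in oligodendrocytes. Nxph1 had 2946, 2759.7, 3205 and 2978 CPM in precursors, against 2.17, 1.57, 6.35 and 6.73 CPM. Neither overlapped, and with so few counts in oligodendrocytes the log2 fold changes of 12.38 ± 0.24 and 9.29 ± 0.21 rest on a low denominator (adjusted p of 8.66e-18 and 7.21e-17). Nrxn3 had 2436, 2247, 2819 and 2062 CPM in precursors, against 4.89, 7.23, 13.6 and 12.7 CPM in oligodendrocytes, far beyond the spread of the libraries (7.81 ± 0.18, adjusted p = 7.21e-17). Of the neuroligins, Nlgn3 was higher by 4.73 ± 0.17, Nlgn2 by 3.59 ± 0.16 and Nlgn1 by 2.77 ± 0.098 on the log2 scale (adjusted p of 3.52e-14, 7.32e-13 and 2.58e-14). Cntn1 had 1832, 1679, 2055 and 1693 CPM in precursors, against 48.9, 61.3, 72.9 and 73.1 CPM in oligodendrocytes, separate ranges (4.73 ± 0.11, adjusted p = 1.42e-16). Cntn4 (6.60), Cntn6 (5.41), Cdh13 (5.89), Tenm3 (6.34) and Tenm1 (5.49) were also higher by these log2 fold changes.

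The 9 genes lower in precursors were Cntn2, Tenm4, Cntn3, Tenm2, Cdh19, Pcdh9, Cdh2, Cdh20 and Cdh10. Cntn2, whose product joins axon and glia beside the node, had 15.1, 26.5, 18.1 and 23.1 CPM in precursors, against 445, 502, 440.0 and 516 CPM in oligodendrocytes. The groups did not overlap (-4.57 ± 0.15, adjusted p = 8.7e-15). Tenm4, needed for myelination in mice, had 15.1, 13.2, 1.81 and 13.9 CPM, against 129.9, 95.8, 132 and 111 CPM, lower in each library without overlap (-3.53 ± 0.26, adjusted p = 8.88e-10). Cntn3 had 94.4, 73.7, 50.6 and 61.7 CPM in precursors, against 530.3, 430.2, 555 and 471 CPM in oligodendrocytes (-2.96 ± 0.14, adjusted p = 2.08e-12). For Tenm4 and Cntn3 the oligodendrocyte sum joins unlike states, described below. Tenm4 averaged 252 CPM in Klk6, 4.50 CPM in Opalin and 13.6 CPM in unnamed oligodendrocytes, the last 2 no higher than the upper precursor values. Cntn3 averaged 925, 33.6 and 259 CPM in the same order, so Opalin oligodendrocytes were below precursors. Pcdh9 had 4755, 3958, 5006 and 4034 CPM in precursors, against 16701, 12249, 18265 and 13645 CPM in oligodendrocytes, a separate range (-1.85 ± 0.097, adjusted p = 7.42e-12). Of the contactin-associated genes, Cntnap2 was higher in precursors (2.67 ± 0.25, adjusted p = 3.3e-08), while Cntnap1 was low in both and did not pass (0.21 ± 0.39, adjusted p = 0.7). Median counts per nucleus were 1959 to 4050.1 in precursors, against 1512 to 2859 in oligodendrocytes, and glutamatergic neuron markers summed to 61.7 to 83.8 CPM, against 29.3 to 70.3 CPM. Their part in the results was not tested. The 26 named members kept their call and direction under all the alternatives that could be fitted.

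Oligodendrocytes were divided by markers of 2 known states, Klk6 (839 to 1077 nuclei per library) and Opalin (635 to 1097), and the remaining 750 to 1193 nuclei per library were left unnamed. Of 43 members tested, 12 were higher in Klk6 oligodendrocytes (27.9%, against 21.4% of 11113 genes) and 27 lower (62.8%, against 21.7%), with a median log2 fold change of -1.15, against 0.00370 over all genes. Of the 27, 13 had means under 20 CPM in both states, and without the library as block 17 members were lower. All 3 neuroligins and all 5 contactin-associated genes tested were lower. Of the other lists, synaptic partners were higher for 1 and lower for 10 of 18, receptor phosphatase and leucine-rich genes for 2 and 11 of 15, immunoglobulin genes for 4 and 12 of 20, and the cadherin superfamily and catenins for 5 and 5 of 13.

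Tenm4 and Cntn3 were the leading members of Klk6 oligodendrocytes. Tenm4 had 266, 224, 281 and 235 CPM in Klk6 oligodendrocytes, against 3.46, 0.577, 5.58 and 8.62 CPM in Opalin oligodendrocytes. Cntn3 had 927, 866, 1009 and 898 CPM, against 51.9, 27.7, 27.9 and 27.6 CPM. Neither range overlapped (5.64 ± 0.17, adjusted p = 2.1e-19 for Tenm4 and 4.91 ± 0.095, adjusted p = 2e-23 for Cntn3). Both genes were also lower in precursors than in oligodendrocytes taken as 1 class. Cdh8 (2.22 ± 0.13, adjusted p = 6.13e-14), Cdh11 (1.46 ± 0.11, adjusted p = 2.89e-11), Lrrtm1 (1.88 ± 0.20, adjusted p = 9.78e-09) and Lrrtm3 (1.01 ± 0.056, adjusted p = 3.51e-14) were higher without overlap. Smaller differences were those of Cdh2 (0.68), Cdh20 (0.68), Cdh19 (0.52) and Nrxn2 (0.30), the last 2 with overlapping values. The call of Nrxn2 was lost without the library as block. Tenm2 did not pass the test (0.027 ± 0.066, adjusted p = 0.784). Leaving out Ucn3-Cre replicate 1 gave it the opposite sign. Tenm3 was too low to be tested.

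Pcdh7 had 8.13, 11.1, 7.32 and 12.8 CPM in Klk6 oligodendrocytes, against 559, 429, 716 and 565 CPM in Opalin oligodendrocytes, and Cntn1 had 13.4, 11.9, 6.99 and 19.0 CPM, against 152, 175, 251 and 201 CPM. Both were separate (-5.77 ± 0.12, adjusted p = 4.83e-23 for Pcdh7 and -3.89 ± 0.15, adjusted p = 3.72e-17 for Cntn1). Nlgn1 had 531, 328, 477 and 431 CPM in Klk6 oligodendrocytes, against 1251, 821, 1023 and 906 CPM in Opalin oligodendrocytes, also apart (-1.15 ± 0.052, adjusted p = 6.28e-16). Cdh6 (-3.79), Cdh13 (-4.65), Pcdh17 (-2.89), Nrxn3 (-3.91) and Cntnap2 (-3.45) were lower without overlap. Cntn2 differed little, at -0.23 ± 0.055, adjusted p = 0.00112, and its call was lost without the library as block. Of the low members, Nlgn2 (-1.28) lost its call without the block and Tenm1 (-2.75) without Ucn3-Cre replicate 2. Cntnap1 (-1.17) lost its call without vGluT2-Cre replicate 2, without the block and with DESeq2. Marker lists of other cells moved in the same direction as these genes. Glutamatergic neuron markers summed to 18.2 to 36.3 CPM in Klk6 oligodendrocytes, against 59.8 to 109 CPM in Opalin oligodendrocytes, inhibitory markers to 125 to 175 CPM, against 210.3 to 269 CPM, and precursor markers to 139 to 202 CPM, against 266 to 354 CPM. Klk6 nuclei were deeper, with median counts of 1979.7 to 3849, against 1262 to 2435. The part of these transcripts and of depth in the results was not tested.

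Astrocytes were divided into fibrous-like (327 to 411 nuclei per library), the type of white matter, and protoplasmic-like (455 to 691), with 323 to 430 nuclei left unnamed. Of 40 members tested, 11 were higher in fibrous astrocytes (27.5%, against 12.3% of 11017 genes) and 13 lower (32.5%, against 11.8%), with a median log2 fold change of 0.13. In this comparison edgeR estimated 1 spread for all genes, which makes adjusted p very small, so those printed for it are from the fit without the library as block, a choice made after seeing the data, in which 6 members were higher and 8 lower. The log2 fold changes and standard errors printed for it are from the fit with the block. They do not belong to the adjusted p beside them, and the standard errors rest on that 1 spread. Without the block, for example, Nrxn3 was at 0.62 and Nlgn3 at -0.68. Scaling by TMM moved all genes by -0.12 on the log2 scale. All 3 teneurins tested were higher with the block, and without it Tenm3 alone was. The lists of other adhesion genes had 4 higher and 4 lower of 16 (cadherin superfamily and catenins), 3 and 7 of 19 (synaptic partners), 2 and 3 of 19 (receptor phosphatase and leucine-rich genes) and 4 and 9 of 19 (immunoglobulin genes).

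The neurexin genes Nrxn3 and Nrxn2 were higher in fibrous than in protoplasmic astrocytes. For Nrxn3 the unnamed astrocytes, with 1818 to 2474 CPM, overlapped the fibrous and lay above the protoplasmic values. For Nrxn2 they had 108 to 156 CPM, below the 172 to 201 CPM of fibrous astrocytes. Nrxn3 had 1752, 1636, 2167 and 2096 CPM in fibrous astrocytes, against 1155, 953, 1505 and 1066 CPM in protoplasmic astrocytes (0.61 ± 0.053, adjusted p = 0.0165), and Nrxn2 was higher by 0.33 ± 0.091 (adjusted p = 0.0371), both without overlap. The receptor gene Lrrtm3 had 215, 160.3, 185 and 145 CPM in fibrous astrocytes, against 41.5, 4.37, 27.7 and 31.1 CPM in protoplasmic astrocytes, separate in every library (2.68 ± 0.13, adjusted p = 0.000754). Nlgn3 was lower with overlapping values (-0.74 ± 0.17, adjusted p = 0.0464), and Nlgn1 did not pass in either fit (-0.12 ± 0.051, adjusted p = 0.79). With DESeq2 the calls of Nrxn2 (adjusted p = 0.090) and Nlgn3 (adjusted p = 0.084) were lost.

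Tenm3 had 101, 93.9, 101 and 84.6 CPM in fibrous astrocytes, against 29.9, 18.1, 35.5 and 20.5 CPM in protoplasmic astrocytes, with no overlap (1.79 ± 0.14, adjusted p = 7.74e-05 without the block). Cntn1 had 2130.1, 1791, 1975 and 1872 CPM in fibrous astrocytes, against 1218, 1199.8, 1181 and 1167 CPM in protoplasmic astrocytes (0.58 ± 0.052, adjusted p = 0.00123), and Cdh8 was higher by 1.90 ± 0.28 (adjusted p = 0.006). These 3 were higher in each library. Lower were Cdh22, with 103, 118, 78.7 and 129 CPM, against 208, 212, 131 and 229.7 CPM (-0.97 ± 0.096, adjusted p = 0.0109), Cdh10 (-0.58 ± 0.061, adjusted p = 0.0127), Cdh23 (-2.49 ± 0.38, adjusted p = 0.00351), Pcdh11x (-0.94 ± 0.090, adjusted p = 0.00366) and Pcdh17 (-0.93 ± 0.10, adjusted p = 0.00177). None of these 5 overlapped. Calls of Tenm1, Tenm4, Cdh18, Nlgn2, Cntnap2, Cdh11, Cdh19 and Cdh20 were lost without the block, and Cntn2 and Cntnap1 passed in neither fit. Glutamatergic neuron markers summed to 150.0 to 238 CPM in fibrous astrocytes, against 71.7 to 118 CPM in protoplasmic astrocytes, and median counts per nucleus were 1686 to 3356, against 1967 to 3684. Their part in the results was not tested.

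**Figure D5:**
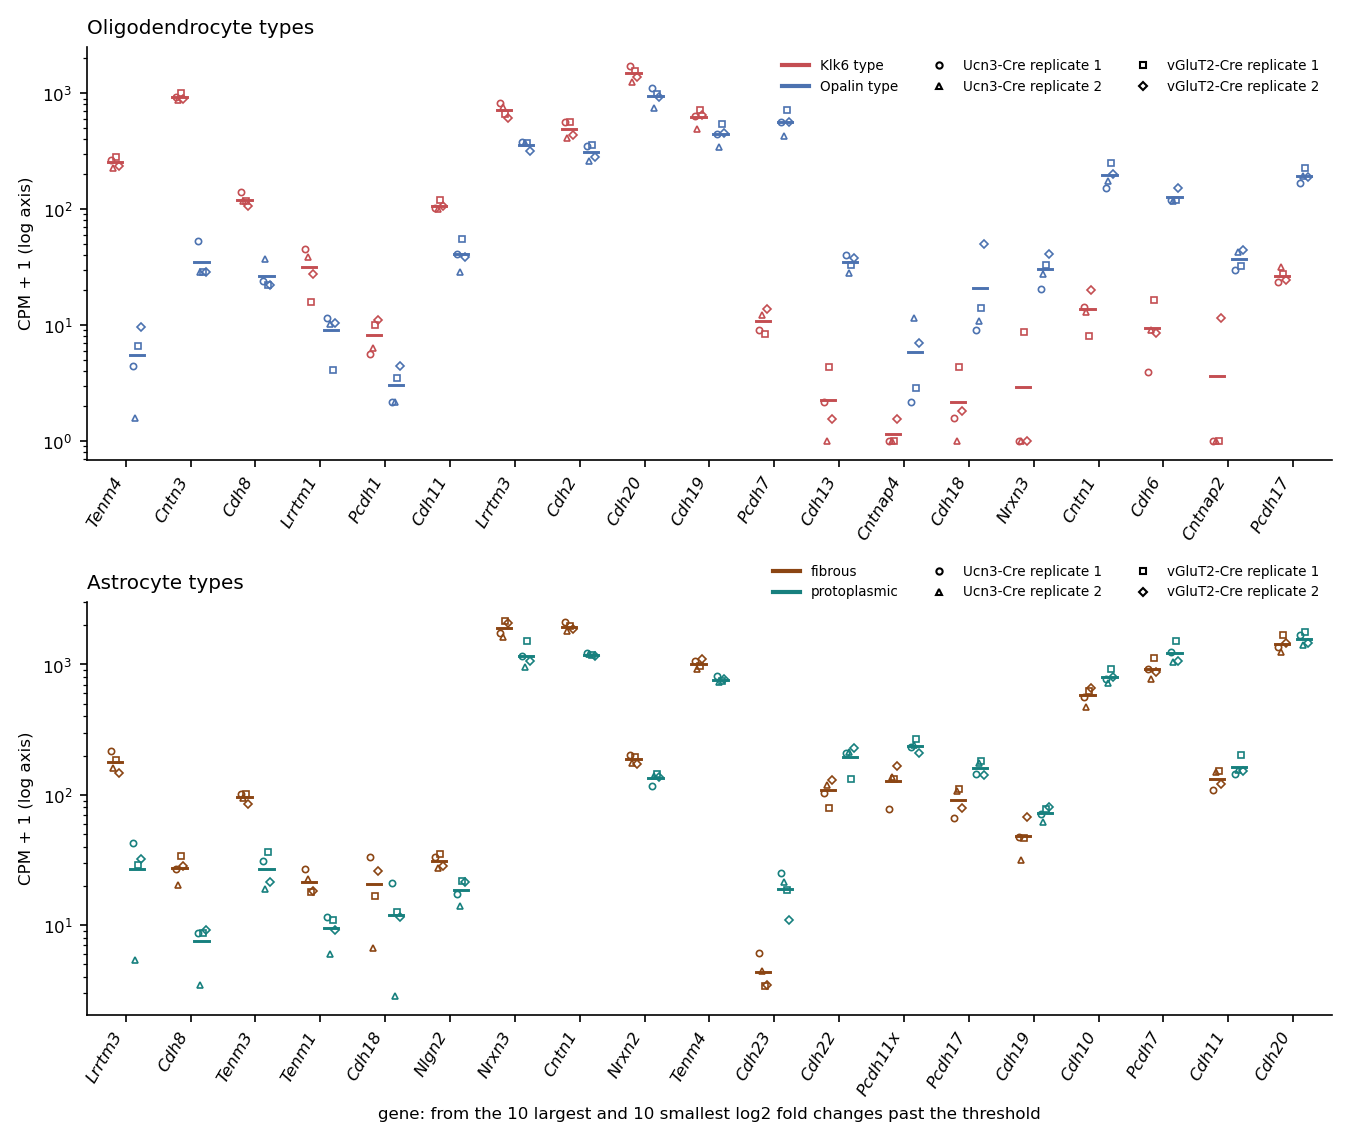
CPM + 1 (log axis) per library of named members in Klk6 beside Opalin oligodendrocytes (top) and in fibrous beside protoplasmic astrocytes (bottom). Pcdh7 is lower in Klk6 oligodendrocytes and Tenm3 higher in fibrous astrocytes, at log2 fold changes of -5.77 and 1.79.

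The lines were compared last, Ucn3-Cre over vGluT2-Cre, 2 libraries against 2, in all nuclei and in 4 classes. edgeR's quasi-likelihood test called none of the 53 members in all nuclei (0% of all 13793 genes in either direction) and none of the 47 to 51 tested in glutamatergic neurons, inhibitory neurons, oligodendrocytes or astrocytes (0% each), and no member was called by DESeq2 or any other alternative. In all nuclei 240 genes were higher and 239 lower at an unadjusted p under 0.05, none of them a member. In single classes an unadjusted p under 0.05 was found for Tenm4 and Tenm3 in inhibitory neurons (2 of 50 members, 4%, against 2.84% of all genes). It was found for Tenm1, Nxph1 and Cntn1 in oligodendrocytes (3 of 47, 6.38%, against 2.75%) and for Lrrtm4 in astrocytes (1 of 48, 2.08%, against 2.98%). The oligodendrocyte share was above that of all genes but rests on 3 members, and each share rests on few genes. The 5 members with the smallest unadjusted p in all nuclei were Tenm3, Cdh6, Lrrtm1, Nxph1 and Pcdh15. Tenm3 had 113 and 132 CPM in Ucn3-Cre libraries, against 205 and 149 CPM in vGluT2-Cre libraries (log2 fold change -0.51 ± 0.19, adjusted p = 0.999989). In inhibitory neurons it had 600.4 and 632 CPM, against 783 and 867 CPM, and in glutamatergic neurons 531 and 564 CPM, against 596 and 677 CPM. The lines did not overlap in these 3 sums, but the differences did not pass the test. Nxph1 had 253 and 293 CPM in Ucn3-Cre libraries, against 454 and 295 CPM in vGluT2-Cre libraries, and Lrrtm1 22.8 and 20.2 CPM, against 13.8 and 16.9 CPM. In sums over all nuclei, more cells of a type and more RNA per cell cannot be told apart: inhibitory neurons made up 4.05 and 4.97% of nuclei of Ucn3-Cre mice, against 7.41 and 4.42% of those of vGluT2-Cre mice. Age and line cannot be told apart in this design, and the median standard error of 0.22 in all nuclei limits what it could detect.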

How the data were processed

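Per the labels' protocols, nuclei of micro-dissected deep cerebellar nuclei were captured on the 10x Genomics platform. The submitters' processing notes list Cell Ranger 3.1.0, Seurat 3.2 and the mm10 build. The tables the authors deposited hold expected counts, fractional values per gene and nucleus that lie just below whole numbers, as after subtraction of a background. What tool did this is not given in the sources used here. Such a step lowers genes spread by free RNA.

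The genes, gene lists and tests were chosen with earlier results of these data known. A minimum of 200 genes and a maximum of 5% mitochondrial counts per nucleus removed no nucleus. The doublet caller Scrublet in scanpy 1.11.5 marked 58 nuclei (0.270%), too few for a working caller. In its place, the top-scoring 947 nuclei were taken out, at a rate of 0.8% for every 1000 nuclei in the library. Clustering (Leiden, resolution 1, 2000 variable genes, 30 components, 15 neighbours) left out 142 genes, the symbols studied and the lists of other adhesion genes. Sub-clusters used resolution 0.5, 1000 genes and 15 components. Clusters were named from fixed markers and the names mean resemblance only.

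Counts were summed per library and class (at least 20 nuclei, or 5 for sub-clusters), rounded, and compared with edgeR 4.0.16 in R 4.3.3 (filterByExpr, TMM, quasi-likelihood test, Benjamini-Hochberg adjustment over all genes tested, threshold 0.05), with the library as block between classes and no block between lines. The code was tested on simulated data. CPM are sums scaled to 1000000, without TMM. Named were, per class comparison, the 10 largest and 10 smallest log2 fold changes among members called with 1 direction in every library, plus 14 fixed genes, and among sub-clusters the 15 smallest p. Alternatives were DESeq2 1.42.0, other size factors, no filter, the block added or removed, each library left out, doublets kept, another resolution and, for glutamatergic neurons, the nuclei the submitters listed as vglut2. Promoters are from RefSeq. The values of 1 member are not reported here, though counts over the members include it.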

Additional observations from a re-analysis of the deposited data

Results flagged for a closer look

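Of 162 levels of named genes over the 4 libraries of a class, 7 had 1 library far from the other 3 by Dixon's ratio, where chance gives about 1 in 20. In glutamatergic neurons, Ucn3-Cre replicate 2 was low for Pcdh15, with 1021 CPM beside 1293 to 1333 CPM in the other libraries, and for Cdh4, with 74.2 CPM beside 103 to 107 CPM. In Opalin oligodendrocytes, Cntn3 was high in Ucn3-Cre replicate 1, at 51.9 CPM beside 27.6 to 27.9 CPM, and Cdh8 was high in Ucn3-Cre replicate 2, at 36.4 CPM beside 21.1 to 23.1 CPM. In the same cells, vGluT2-Cre replicate 2 was low for Lrrtm3, at 314 CPM beside 371 to 379.7 CPM, and high for Cdh6, at 150.5 CPM beside 117 to 118 CPM. In oligodendrocyte precursors, Lrrtm4 was low in vGluT2-Cre replicate 2, at 2771 CPM beside 3603 to 3677 CPM. The classes compared did not overlap for any of these 7 genes with the library included.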

How the results depend on the processing

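Over 16 settings, 1491 refits of 137 named values gave the same direction and side of the threshold in 1439, lost the call in 45, gained it in 1 and turned the sign in 6. The sign turned without microglia for Nlgn1 (-0.034), Cntn1 (-0.33) and Nrxn2 (-0.61) in neurons over glia, for Tenm2 in Klk6 over Opalin oligodendrocytes without Ucn3-Cre replicate 1 (-0.075) and without oligodendrocyte sub-cluster 4 (-0.025), and for Cntn2 in fibrous over protoplasmic astrocytes without Ucn3-Cre replicate 2 (-0.34). With each library left out in turn, the log2 fold change ranged from -0.075 to 0.077 for Tenm2 and from -0.34 to 0.29 for Cntn2. Members lower in neurons than in glia numbered 10 without microglia, against 3 with them, since that setting drops a class from the mean. Without the library as replicate block, 17 members were lower in Klk6 oligodendrocytes, against 27, and 6 higher and 8 lower in fibrous astrocytes, against 11 and 13; with DESeq2, 6 were higher there. The cause of these changes was not tested. The settings without microglia, without sub-cluster 4, without sub-clusters led by markers of another class and with a count in every library were chosen after seeing the data. With 1 library left out, members called ranged from 17 to 20 higher and 15 to 17 lower in glutamatergic over inhibitory neurons, 44 to 45 and 3 in neurons over glia, 31 to 33 and 9 in precursors, 12 and 22 to 26 in Klk6 oligodendrocytes, 9 to 12 and 12 to 13 in fibrous astrocytes, 37 to 43 among glutamatergic and 43 to 44 among inhibitory sub-clusters, and 0 between lines, where the lone library is assumed to vary like the others. Between lines, libraries share a replicate number, and both replicate 2 libraries also a number in their nucleus names that the labels do not explain, with correlations of the same-numbered libraries' deviations of 0.03 to 0.13, and with that number as replicate block 0 members were called. Genes under about 20 CPM rest on few counts.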
